A study of Mus musculus with 6 samples.

Results

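Sorbs2, Sorbs3, Lmo7, Limch1, Shroom2 and Shroom3, 6 genes that encode linkers between cell contacts and the actin cytoskeleton, were followed in forelimb bud ectoderm of mouse embryos with and without the transcription factor Sp8. They are 6 of the 49452 genes in the deposited table and were found there by symbol. Sorbs2 and Lmo7 were selected on their low FPKM in the Sp8 null libraries of this same comparison, so their genotype difference is given as a description and no test is attached to it. Sorbs3, Limch1, Shroom2 and Shroom3 were listed for their kinship or their function. RNA was sequenced from 3 Sp8 null and 3 wild-type embryos at E10.5, both labelled as C57BL6J. The null embryos were offspring of heterozygotes that carry an allele named Sp8-Cre-ERT2, and the wild-type embryos came from separate crosses of C57BL/6 mice, so that genotype and cross cannot be told apart. Each library held the trypsin-separated ectoderm of 1 embryo's pair of forelimb buds. Values are FPKM, fragments scaled to transcript length and to the fragments mapped in the library.

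Sorbs2 and Sorbs3 are vinexin family proteins, which carry a sorbin homology domain and SH3 domains and gather vinculin, palladin and Abl-family kinases at cell-matrix and cell-cell contacts. Lmo7 is a large LIM-domain protein that binds afadin and alpha-actinin at the adherens junctions of epithelia and also binds the nuclear envelope protein emerin, and Limch1 is its closest relative. Shroom proteins act at the apical junctions, where myosin II contracts and narrows the cell apex. In the limb bud the ectoderm forms the apical ectodermal ridge along the distal rim, a thickened epithelium that keeps the bud growing through FGFs and that depends on Sp8.

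All 6 genes are protein-coding. Sorbs2 (ENSMUSG00000031626) lies on the plus strand of chromosome 8, from 45507788 to 45827906, and Lmo7 (ENSMUSG00000033060) on the plus strand of chromosome 14, from 101729957 to 101934710 (GRCm38, GENCODE M21). Sorbs3 (ENSMUSG00000022091) lies on the minus strand of chromosome 14, from 70180468 to 70211989. Limch1 (ENSMUSG00000037736; 66745827 to 67057158) and Shroom3 (ENSMUSG00000029381; 92683435 to 92965318) lie on the plus strand of chromosome 5, and Shroom2 (ENSMUSG00000045180; 152609509 to 152769465) lies on the minus strand of chromosome X. The annotation held 36 transcripts for Sorbs2, 16 for Lmo7 and 18 for Limch1, against 4 for Sorbs3, 6 for Shroom2 and 11 for Shroom3. The deposited values are per gene, so they do not show which transcript or start was in use.

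The 250 bases before the first listed start of Sorbs2 and of Lmo7 are shown because these genes were low together in the null libraries. The sequences are from RefSeq (build GRCm38.p6), 5′ to 3′ on the plus strand, and capitals mark GC boxes, the element read by Sp-family zinc fingers, searched as GGGCGG on both strands.
Sorbs2, chr8:45507538-45507787: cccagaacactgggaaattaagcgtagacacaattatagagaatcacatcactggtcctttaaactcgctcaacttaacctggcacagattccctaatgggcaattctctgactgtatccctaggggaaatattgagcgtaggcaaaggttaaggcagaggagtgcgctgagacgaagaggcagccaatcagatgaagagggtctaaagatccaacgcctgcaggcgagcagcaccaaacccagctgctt
Lmo7, chr14:101729678-101729927: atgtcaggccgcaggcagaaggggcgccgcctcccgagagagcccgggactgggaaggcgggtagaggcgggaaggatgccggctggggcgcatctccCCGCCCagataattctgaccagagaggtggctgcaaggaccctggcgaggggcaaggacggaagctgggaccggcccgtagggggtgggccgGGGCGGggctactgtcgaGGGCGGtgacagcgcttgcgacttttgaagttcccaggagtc
The Lmo7 window held 3 GC boxes and the Sorbs2 window none. GC content was 68.8% for Lmo7 and 48.8% for Sorbs2, against a median of 52.4% over 32851 windows of this length. GC boxes occurred in 32.7% of all those windows. For 5 of the 6 genes RefSeq listed 14 starts in all, and 4 of these windows had a GC box, 1 each for Lmo7, Limch1, Shroom2 and Shroom3. The homeodomain site TAATTA, present in 4.84% of all windows, was in none of the 14. Binding of Sp8 was not measured in these libraries.

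Each of the 6 genes was above 1 FPKM in every library, so all passed the filter of at least 1 FPKM in at least 3 libraries that left 12133 tested genes, and none passed through 1 genotype alone. Of the tested genes, 6.83% differed between genotypes (limma on log2(FPKM + 1), Benjamini-Hochberg adjusted p under 0.05), 5.15% being lower and 1.68% higher in Sp8 null. These were 625 lower and 204 higher genes, against 544 and 322 under median-of-ratios and 507 and 363 under upper-quartile scaling of the libraries. The groups did not overlap for 29.8%, and 2914 of the 12133 tested genes had an unadjusted p under 0.05. Sp8 itself (ENSMUSG00000048562) was at 0.766, 0.460 and 1.14 FPKM in null embryos 1, 2 and 3 and at 8.35, 10.97 and 13.5 FPKM in wild-type embryos 1, 2 and 3, so each library followed its label. Depth is not given and was estimated from genes of low value, only relative to wild-type embryo 1. The estimate lay between 0.841 and 1.04 for the other libraries. Correlations of log2(FPKM + 1) across the tested genes, which are not independent replicates, were 0.970 to 0.978 within a genotype and 0.950 to 0.966 between genotypes.

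Sorbs2 was the most abundant of the 6 in wild type and the second lowest in Sp8 null. It was at 24.7, 28.1 and 28.2 FPKM in wild-type embryos 1, 2 and 3 and at 2.55, 2.34 and 2.71 FPKM in null embryos 1, 2 and 3. The highest null library was far under the lowest wild-type library, and within each genotype the libraries lay close together. The means were 26.99 ± 1.96 and 2.53 ± 0.188 FPKM (SD, n = 3 each), a ratio of 10.65, with a coefficient of variation of 7.25% in wild type and 7.42% in null. On the log2(FPKM + 1) scale the difference was -2.98 (SE 0.09), the twelfth position among the falls of the tested genes. Measured against all tested genes, the mean of Sorbs2 stood above 83.0% of gene means in wild type and above 22.2% in null. The samples are bulk tissue, so fewer cells that express a gene and less of its RNA per cell cannot be told apart here or in any result that follows.

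Lmo7 ranked next in wild type, with 18.2, 17.8 and 18.8 FPKM in embryos 1, 2 and 3. In Sp8 null it was at 3.70, 2.92 and 4.85 FPKM. No null library came near the wild-type ones, but the null libraries differed among themselves more than for Sorbs2: the coefficient of variation was 25.4% in null and 2.65% in wild type. The means were 18.2 ± 0.484 and 3.82 ± 0.973 FPKM (SD, n = 3 each), a ratio of 4.77, and the difference on the log2(FPKM + 1) scale was -2.02 (SE 0.14), position 34 among the falls. Null embryo 2 was the lowest and null embryo 3 the highest for both Sorbs2 and Lmo7.

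**Figure D1:**
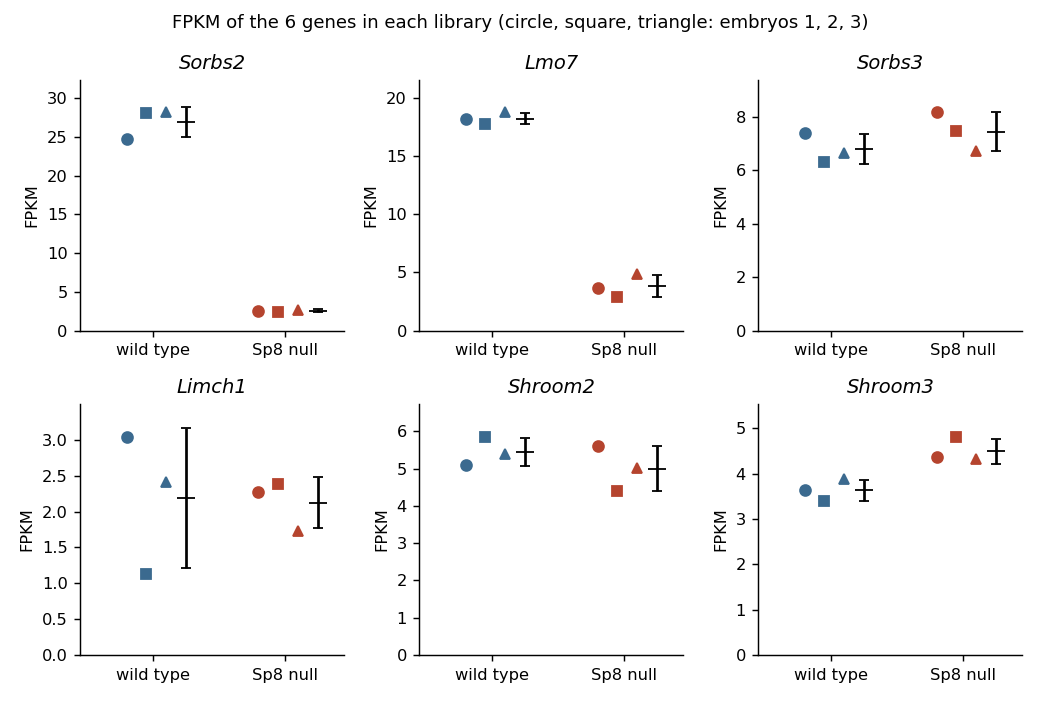
FPKM of each gene in each library, by genotype (circle, square and triangle for embryos 1, 2 and 3; black bars, mean ± SD of 3 libraries); every vertical axis starts at 0. Sorbs2 and Lmo7 separate the genotypes widely, Shroom3 narrowly, and Sorbs3, Limch1 and Shroom2 overlap.

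Sorbs3, or vinexin, which binds vinculin through its SH3 domains, was at 7.41, 6.32 and 6.66 FPKM in wild type and at 8.17, 7.46 and 6.71 FPKM in null. These ranges overlap. The log2 difference was 0.11 (95% confidence interval -0.12 to 0.35; limma adjusted p = 0.538).

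The balance of Sorbs2 and Sorbs3 differed with genotype. Since Sorbs2 was selected on its low null values and Sorbs3 was not called, this restates that selection and is no separate result. Sorbs2 made up 76.9%, 81.6% and 80.9% of their summed FPKM in wild-type embryos 1, 2 and 3, and 23.8%, 23.9% and 28.8% in null embryos 1, 2 and 3. Sorbs3 held the larger share in every null library and the smaller one in every wild-type library. Their sum was 32.1 to 34.8 FPKM in wild type and 9.43 to 10.71 FPKM in null.

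Limch1, a LIM and calponin-homology protein that activates non-muscle myosin II, was the lowest of the 6 in both genotypes. It was at 3.04, 1.12 and 2.41 FPKM in wild-type embryos 1, 2 and 3 and at 2.27, 2.38 and 1.72 FPKM in null embryos 1, 2 and 3. The null libraries all fell within the wild-type range, which was wide: the coefficient of variation was 44.6% in wild type, the largest of the 6 genes in either genotype. The log2 difference was 0.01 (95% confidence interval -0.53 to 0.56; limma adjusted p = 0.980), and without wild-type embryo 2 it was -0.255, so the interval leaves room for a moderate difference either way. Since Lmo7 was selected on its low null values, its lower null share of the sum of Lmo7 and Limch1 restates that selection. Lmo7 made up 85.7% to 94.1% of this sum in wild type and 55.0% to 73.8% in null. In null embryo 2, where Lmo7 was lowest, Limch1 held 45% of that sum.

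**Figure D2:**
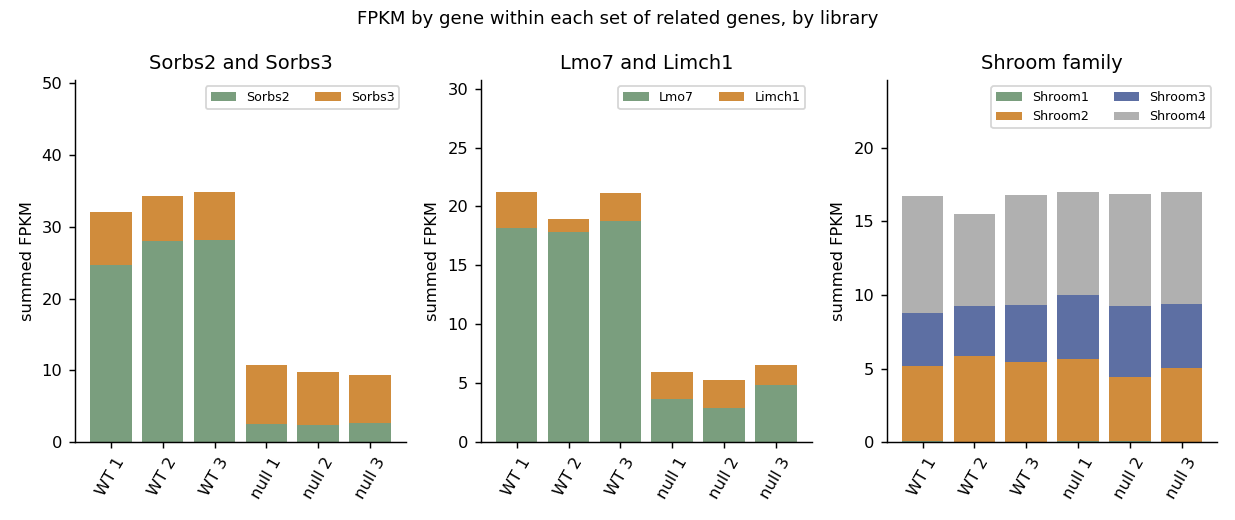
Summed FPKM of Sorbs2 with Sorbs3, of Lmo7 with Limch1, and of the Shroom genes in each library, divided by gene (WT, wild type; null, Sp8 null). The first 2 sums are lower in every null library, through Sorbs2 and Lmo7, which were selected on their low null values. The Shroom sum lies between 15.5 and 16.97 FPKM in all 6 libraries.

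Among the Shroom genes, Shroom2, which is found at epithelial junctions and in the endothelium, was at 5.09, 5.85 and 5.38 FPKM in wild type and at 5.59, 4.40 and 5.0 FPKM in null. The groups overlap, and the log2 difference was -0.11 (95% confidence interval -0.35 to 0.14; limma adjusted p = 0.592). Shroom3, the family member needed for neural tube closure, was at 3.63, 3.40 and 3.87 FPKM in wild type and at 4.36, 4.81 and 4.32 FPKM in null. All null libraries were higher than all wild-type libraries, but the step was small, 0.25 on the log2 scale (interval 0.03 to 0.46). It missed the threshold (unadjusted p = 0.0303, limma adjusted p = 0.16).

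For the rest of the family, Shroom4 overlapped between genotypes, with 6.24 to 7.89 FPKM in wild type and 6.96 to 7.60 FPKM in null (log2 difference 0.03, limma adjusted p = 0.871). Shroom1 stayed at or under 0.0776 FPKM throughout and was not tested. The summed FPKM of the 4 Shroom genes was 16.7, 15.5 and 16.8 in wild type and 16.97, 16.8 and 16.97 in null. Shroom4 had the largest share of it in each library, from 40.2% to 47.3%.

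Of the 4 genes that were not picked for a low value, none was called by limma, where 6.83% of all tested genes were. Shroom3 alone had an unadjusted p under 0.05, as had 2914 of all 12133 tested genes. None of the 4 was called with robust empirical Bayes. Groups did not overlap for 1 of the 4, against 29.8% of all tested genes. In wild type the order of mean FPKM was Sorbs2, Lmo7, Sorbs3, Shroom2, Shroom3 and Limch1, and no neighbours in this order overlapped in their libraries. In null the order was Sorbs3, Shroom2, Shroom3, Lmo7, Sorbs2 and Limch1. There the neighbours Shroom2 and Shroom3, Shroom3 and Lmo7, and Sorbs2 and Limch1 overlapped, while Sorbs3 stood clear of Shroom2 and Lmo7 clear of Sorbs2.

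**Figure D3:**
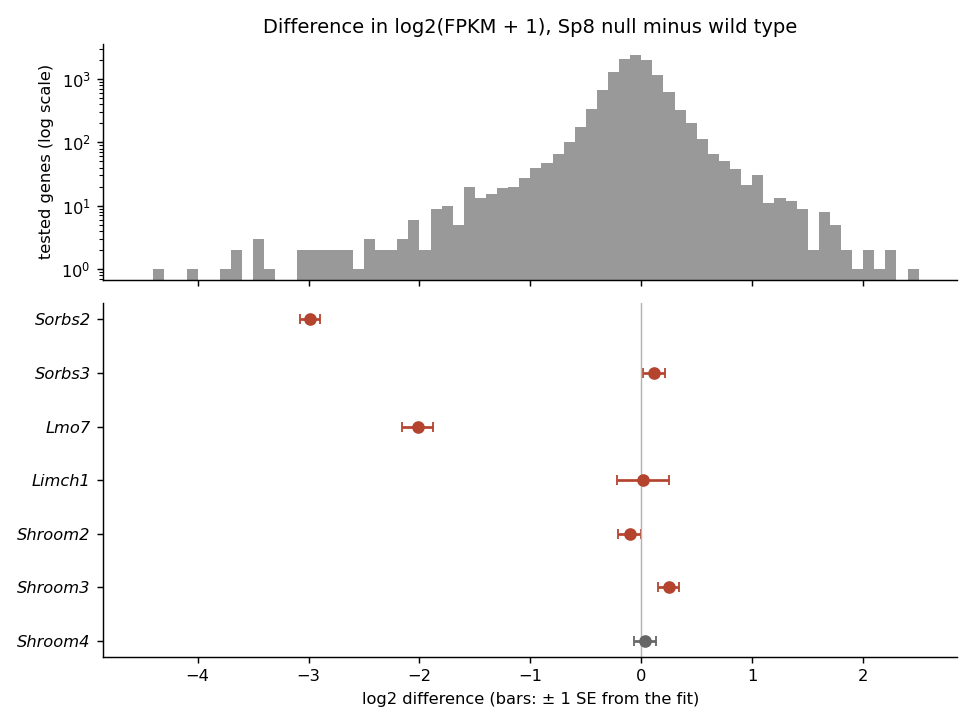
Top, number of tested genes (log scale) by difference in log2(FPKM + 1), Sp8 null minus wild type; bottom, the same difference with its SE for the 6 genes (red) and for Shroom4 (grey). Sorbs2 (-2.98) and Lmo7 (-2.02) lie in the left tail and the other genes lie between -0.11 and 0.25.

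The authors' deposited table gave its own comparison, on a scale whose size resembles normalized read numbers and with the test not named in the table. In the authors' deposited table the group mean of Sorbs2 was 2106.17 in control and 226.05 in sample, with a fold change of -8.49. For Lmo7 the authors' deposited table had means of 2101.72 and 426.47 and a fold change of -4.64. These were positions 18 and 37 among the falls of the whole authors' deposited table. The fold change in the authors' deposited table was 1.13 for Shroom3, 1.10 for Sorbs3, -1.01 for Limch1 and -1.07 for Shroom2. Its p-value was 0.0388 for Shroom3 and at least 0.161 for the other 3 genes of the authors' deposited table named here.

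Proteins known to bind the vinexin family or Lmo7 were looked at next. Of 14 tested partners 1 was called, or 7.1% against 6.83% of all tested genes. The median log2 difference was -0.01, against -0.06 over all tested genes. Palld, or palladin, an actin-bundling protein that binds Sorbs2, was at 8.14, 7.89 and 9.04 FPKM in wild type and at 3.22, 4.19 and 2.67 FPKM in null. Every null library was well under every wild-type library, and Palld fell by 1.11 in log2(FPKM + 1) (SE 0.14; limma adjusted p = 0.00452). The partners that did not pass included vinculin (Vcl, 4.22 ± 0.312 FPKM in wild type and 4.86 ± 0.310 in null; SD, n = 3), afadin (Afdn, 33.4 ± 1.46 and 32.2 ± 2.64) and emerin (Emd, 49.3 ± 1.63 and 50.7 ± 1.64). Flot1 of the lipid raft flotillins and the ubiquitin ligase Cblb had log2 differences of 0.42 and 0.36 without passing (limma adjusted p = 0.14 and 0.0744), and 1 of the 2, Cblb, was called under upper-quartile and median-of-ratios scaling between libraries.

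LIM and PDZ-LIM proteins of the actin cytoskeleton, the wider class to which Lmo7 belongs, held 2 calls among 15 tested genes, 1 in each direction. This was 13.3% against 6.83% of all tested genes, and the median was 0.03. Pdlim5, which joins alpha-actinin to protein kinase C, was at 10.3, 12.2 and 9.59 FPKM in wild type and at 5.49, 5.13 and 5.53 FPKM in null. The groups were clear of each other, and it fell by 0.87 on the log2 scale (SE 0.10; limma adjusted p = 0.00376). Limk2, a kinase that inactivates cofilin, rose from 24.3 ± 1.68 to 33.3 ± 1.80 FPKM (SD, n = 3; log2 difference 0.44, SE 0.08, limma adjusted p = 0.0199). The Limk2 call was lost in 6 of 15 alternatives, with adjusted p up to 0.0875. Pdlim1, the most abundant of this list, did not pass, with 117 ± 3.44 FPKM in wild type and 113 ± 17.3 FPKM in null.

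Of 24 tested adherens junction genes 1 was called, or 4.2% against 6.83% of all tested genes, and the median log2 difference was -0.03. Lima1, or Eplin, which ties alpha-catenin to actin filaments, was at 17.9, 14.2 and 13.1 FPKM in wild type and at 21.9, 25.7 and 22.2 FPKM in null. It rose by 0.60 (SE 0.12; limma adjusted p = 0.0313), and this call was lost in 7 of 15 alternatives, with adjusted p up to 0.12. Ctnna1, or alpha-catenin, was lower in each null library, at 68.0 ± 4.11 against 79.8 ± 3.16 FPKM (SD, n = 3), without passing (log2 difference -0.23, limma adjusted p = 0.101). E-cadherin (Cdh1) was at 80.1 ± 1.63 FPKM in wild type and 81.9 ± 8.31 FPKM in null, and beta-catenin (Ctnnb1) at 452 ± 22.1 and 470 ± 56.8 FPKM. Vcl, Afdn, Actn1 and Actn4 stand in this list and in that of the binding partners.

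No tight junction gene among 12 tested passed in limma, where 6.83% of all tested genes did, and the median was -0.10. An unadjusted p under 0.05 was found for 5 of the 12, and for 2914 of all 12133 tested genes. With robust empirical Bayes 1 was called. The gene of smallest p was Pard3, a polarity scaffold, at 20.0 ± 1.22 FPKM in wild type and 16.2 ± 0.132 FPKM in null (SD, n = 3; log2 difference -0.29, limma adjusted p = 0.0578). Tjp3, named after its values were seen, was at 1.60 ± 0.209 and 2.69 ± 0.434 FPKM (log2 difference 0.50, limma adjusted p = 0.0608). It was the gene called with robust empirical Bayes and under both other scalings.

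The contractile machinery that Shroom proteins engage had 3 calls among 14 tested genes, or 21.4% against 6.83% of all tested genes. Of these calls 2 were lower and 1 higher, and the median of the list was -0.10. Mylk, myosin light chain kinase, was at 2.68, 3.52 and 2.58 FPKM in wild type and at 6.73, 6.08 and 6.85 FPKM in null. It rose by 0.95 (SE 0.12; limma adjusted p = 0.00447), and no library broke the separation. Rnd3, a small GTP-binding protein known to loosen actin stress fibres, was at 72.9, 75.5 and 75.0 FPKM in wild type and 45.8, 51.5 and 52.2 FPKM in null. It fell by 0.57 (SE 0.07; limma adjusted p = 0.00475). Myh9, the heavy chain of non-muscle myosin IIA, fell from 49.4 ± 2.69 to 37.9 ± 3.46 FPKM (SD, n = 3; log2 difference -0.38, limma adjusted p = 0.0445). The Myh9 call was lost in 11 of 15 alternatives, with adjusted p up to 0.159. Rock1 and Rock2, the kinases that Shroom proteins bind, had log2 differences of -0.12 and -0.23 and did not pass (limma adjusted p = 0.377 and 0.16). Myh10 was listed at 0 with a failed estimate in null embryo 3, so its difference is not read. It is counted in the 14 and in the median. With genes of a failed estimate left out, 3 of 13 were called.

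Among proteins that tie the membrane to the cortex, 1 of 17 tested was called, or 5.9% against 6.83% of all tested genes. The median was -0.10. Epb41l3, a protein 4.1 relative that links membrane proteins to spectrin and actin, was at 15.8, 16.0 and 13.5 FPKM in wild type and at 10.3, 9.62 and 9.49 FPKM in null. It fell by 0.57 (SE 0.09; limma adjusted p = 0.012), and without wild-type embryo 2 the adjusted p was 0.0571. Desmoplakin (Dsp) and ezrin (Ezr) did not pass, with log2 differences of -0.23 and -0.32 (adjusted p = 0.317 and 0.16 in limma).

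**Figure D4:**
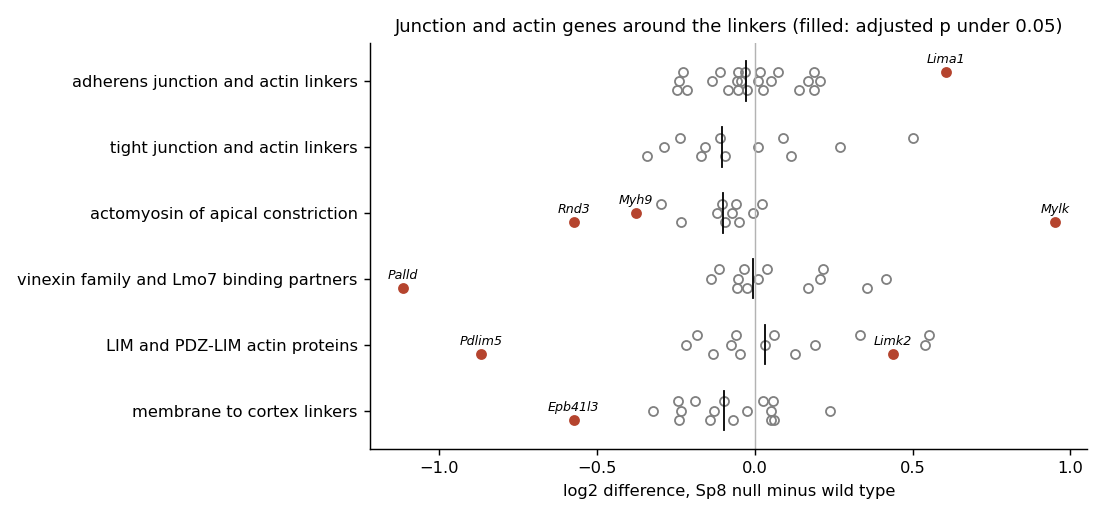
Difference in log2(FPKM + 1), Sp8 null minus wild type, of each tested gene in 6 lists of junction and actin genes (filled, adjusted p under 0.05; black line, median of the list; Myh10 is not drawn). Most genes lie within 0.5 of 0, and the named calls are Lima1, Rnd3, Myh9, Mylk, Palld, Pdlim5, Limk2 and Epb41l3.

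The genes whose pattern over the 6 libraries was most like that of each gene were sought among the 7359 tested genes whose mean reached 5 FPKM, by the root mean square difference of log2(FPKM + 1) after removal of each gene's mean. For Sorbs2 they were Rgs5 (0.079), Itga4 (0.119), Slc16a10 (0.168), Sp8 (0.214) and Fgf4 (0.243), against a span of 3.13 for Sorbs2 itself. Rgs5 regulates G-protein signalling, Itga4 is an integrin subunit, Slc16a10 carries aromatic amino acids, and Fgf4 is a growth factor of the apical ridge. For Lmo7 they were Fzd1 (0.136), Dlx2 (0.152), Lbh (0.158), Thbs1 (0.163) and Dlx1 (0.193), against a span of 2.34. Fzd1 is a Wnt receptor, Dlx1 and Dlx2 are homeobox factors, and Thbs1 is a matrix protein. The likeness rests mostly on the step between genotypes that all these genes share.

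Within the null libraries the nearest genes differed in detail. Dlx2 was at 2.26, 1.08 and 2.43 FPKM in null embryos 1, 2 and 3 and Dlx1 at 2.94, 1.39 and 3.33 FPKM, the same order as Lmo7. Fgf4, at 0.0589, 0.0327 and 0.0162 FPKM, had another order. For the 4 genes not selected on their values the nearest patterns were Hist1h2bb for Sorbs3 (0.030), Polh for Shroom2 (0.0304), Trim24 for Shroom3 (0.0358) and Gm15800 for Limch1 (0.124). Limch1 thus had no gene as near to it as the other 3 did.

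**Figure D5:**
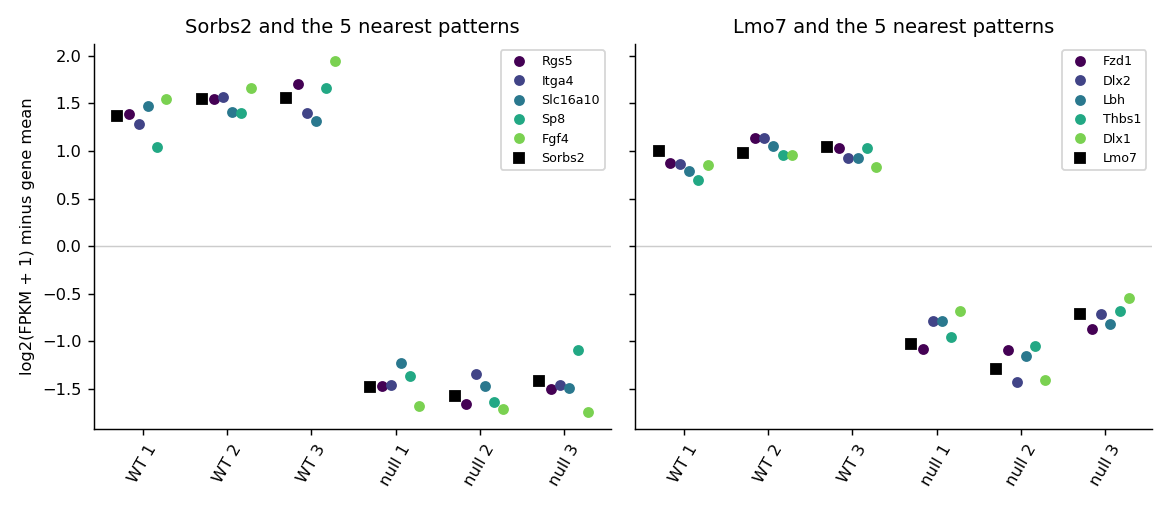
Log2(FPKM + 1) minus the gene's own mean in each library, for Sorbs2 (left, black squares) and Lmo7 (right, black squares) with the 5 genes of most similar pattern (coloured circles, shifted sideways for clarity). All genes drawn lie above 0 in the 3 wild-type libraries and below 0 in the 3 null libraries.

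The levels of cell type markers were set beside these results. The 12 surface ectoderm markers were all tested, with a summed level of 768 to 840 FPKM in wild type and 630 to 766 FPKM in null. Epcam and Wnt3 were called lower and Tfap2a higher, or 25% against 6.83% of all tested genes. Trp63, the defining factor of surface ectoderm, was at 131 ± 10.97 and 125 ± 12.5 FPKM (SD, n = 3). Of the 12 apical ridge markers 11 were tested and 10 were called lower, against 5.15% of all tested genes. Fgf4, Rspo2 and Fgf9 were under 1 FPKM in every null library and passed the filter through wild type alone. These could therefore enter the test only as lower genes. The summed level of the 12 ridge markers was 328 to 338 FPKM in wild type and 72.4, 57.8 and 75.0 FPKM in null embryos 1, 2 and 3. Sorbs2 and Lmo7 had the same order among the null libraries as that sum. The order was not particular to the ridge markers. The surface ectoderm sum had it too, at 724, 630 and 766 FPKM in null embryos 1, 2 and 3, while the limb mesenchyme sum did not. The part of the ridge markers in the result was not tested.

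Because Sorbs2 and Lmo7 are also known from muscle, myoblast markers were included. Myog was at 0 in all 6 libraries, Myod1 and Lbx1 were at most 0.0563 and 0.0608 FPKM, and Pax3 was at most 0.649 FPKM. The summed level of the 7 myoblast markers, 11.4 to 15.3 FPKM in wild type and 15.03 to 17.7 FPKM in null, was almost wholly Met, which was at 11.2 to 17.4 FPKM. Limb mesenchyme markers summed to 43.1 to 79.5 FPKM in wild type and to 44.2, 131 and 42.0 FPKM in null embryos 1, 2 and 3. Of the 11 mesenchyme markers 9 were tested and 2 were called, in opposite directions, or 22.2% against 6.83% of all tested genes. Lmx1b rose from 5.95 ± 1.21 to 13.7 ± 3.45 FPKM (SD, n = 3; log2 difference 1.07, limma adjusted p = 0.0166), and Msx1 fell from 7.63 ± 1.44 to 2.67 ± 0.468 FPKM (log2 difference -1.23, limma adjusted p = 0.00467). Pdgfra did not overlap between the groups, at 19.8 to 23.8 FPKM in wild type and 6.01 to 19.5 FPKM in null, and did not pass (limma adjusted p = 0.12). The part of the mesenchyme markers in the result was not tested. Without null embryo 2 the log2 difference was -2.94 for Sorbs2 and -1.88 for Lmo7. Leaving out 1 library does not separate mesenchyme content from genotype, so no conclusion is drawn from these values. Erythroid markers were highest in wild-type embryo 1, at 423 FPKM against 11.6 to 162 FPKM in the other libraries. Without that library Sorbs2 and Lmo7 were at -3.04 and -2.02. The part of the erythroid markers in the result was not tested. Endothelial markers summed to 2.05 to 2.97 FPKM in wild type and 2.51 to 4.40 FPKM in null. Macrophage markers summed to 0 to 0.85 FPKM in wild type and 1.02 to 1.81 FPKM in null. The macrophage sums did not overlap, but no macrophage marker passed the filter, so none was tested.

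Genes around the 6 loci were read for position. Within 500 kb of Sorbs2 8 genes were tested and none was called in limma, with log2 differences from -0.45 to 0.10. An unadjusted p under 0.05 was found for 1 of them, and for 2914 of all 12133 tested genes. Sorbs2os, an RNA gene annotated on the other strand, shares 1051 exonic nt with Sorbs2. It was at 0.884, 0.886 and 0.786 FPKM in wild type and at 0.0611, 0.0713 and 0.0605 FPKM in null. The use of strand in counting is not given in the sources used here, so reads of the pair cannot be told apart, and all its values were under the filter.

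Around Lmo7 3 genes were tested within 500 kb, and 2 were called lower, named after their values were seen. Of all tested genes 5.15% were called lower, and 3 neighbours are too few to show a change of the region. Uchl3, a ubiquitin hydrolase gene 33832 bp away, fell from 21.1 ± 0.425 to 16.4 ± 1.003 FPKM (SD, n = 3; log2 difference -0.35, limma adjusted p = 0.0347). Tbc1d4, a Rab GTPase-activating protein gene 120766 bp away, fell from 4.13 ± 0.738 to 1.84 ± 0.25 FPKM (log2 difference -0.84, limma adjusted p = 0.0143). Commd6 did not change beyond its spread (-0.01, limma adjusted p = 0.958). For the other loci, 2 of 18 tested neighbours were called for Sorbs3 and 1 of 5 for Limch1 (Apbb2, log2 difference -0.43). None of 8 was called for Shroom2 (1 at an unadjusted p under 0.05) and 1 of 12 for Shroom3 (Sdad1, log2 difference -0.36). The share called in either direction was 6.83% over all tested genes. Exons of Shroom3 share 3293 nt with an RNA gene on the other strand, 4932430I15Rik, whose mean over the libraries was 0.0545 FPKM.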

How the data were processed

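The authors deposited 1 table with FPKM for 49452 genes in each of 6 libraries and a status for each estimate. Gene models were those of Ensembl build 87, per the file headers. The submitters' processing notes name TopHat2, SAMtools, Cufflinks, DESeq2 and FastQC and the build GRCm38, without roles. The authors' deposited table also gave group means (a signal whose size resembles normalized read numbers), a fold change with a sign, treated as a score, and a p-value, whose test was not stated per the file headers. These are quoted and were not reanalysed. Control was taken for wild type.

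FPKM was analysed as log2(FPKM + 1) with limma 3.58.1 in R 4.3.3, with genotype as the only term and a mean-variance trend, over the 12133 genes that reached 1 FPKM in 3 or more libraries. P-values are two-sided and adjusted by Benjamini-Hochberg over all tested genes. Fold changes on this scale understate the change of low genes. The script was tested on simulated data. Groups came from the sample titles. Each library is 1 embryo, and no counts are given, so counting intervals were not computed. Total FPKM, from 845961 to 12061445, is not a depth, since 1 gene took 48.4% to 96.1% of it.

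The members and lists were chosen with earlier results of these data known. By rule, named genes are the members, other Shroom genes, Sp8, the called genes of each list or the one of smallest p, markers, and the 5 nearest patterns per member. The abundant junction genes given as levels were added for context, after their values were seen. Flot1, Cblb, Tjp3, Ctnna1, Rock1, Rock2, Dsp, Ezr and the genes near the 6 loci were also named outside this rule. A further gene of the rule is not reported here. Symbols absent from the table were filled from GENCODE M21, which held 49109 of the identifiers. Promoter sequences were matched by symbol for 5 of 6 members. Alternatives covered the pseudocount, filter, scaling, empirical Bayes step, covariates, failed estimates and each library left out.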

Additional observations from a re-analysis of the deposited data

How the results depend on the processing

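Up to 15 alternatives per gene were tallied for the members, Shroom4, Sp8 and the called genes of the junction and actin lists. Of these differences 208 kept their direction and side of the threshold, 25 lost a call and 4 changed direction. The 208 include 15 each for Sorbs2 and Lmo7, which were selected on their low null values, so these are no separate evidence of stability. No such tally was made for the other named genes. Of the counts of called genes, 76 stayed within 1.5 times of the reported count and 29 did not; the cause was not tested. Sorbs2 and Lmo7 kept direction and size throughout, from -3.36 to -2.90 and from -2.26 to -1.88, the pseudocount of 0.1 giving the lowest value of each. Sorbs3, Shroom2 and Shroom3 stayed on the same side in every alternative that tested them. With one library left out, Limch1 ranged from -0.255 to 0.21 and Shroom4 from -0.0532, without wild-type embryo 2, to 0.10. The 829 calls became 342 with no filter, 545 with a covariate for the number that opens each sample name, and 316 to 642 with one library left out.

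The embryo numbers did not pair the libraries: deviations from the group means correlated at -0.164, -0.145 and -0.07 between libraries of the same number, and no null library correlated best with its own number. With the replicate block 328 genes were called. The block left 0 adherens junction calls and 1 LIM call (Pdlim5).

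List counts moved as follows. Adherens junction calls (1) were 0 with no filter, 2 under upper-quartile scaling (Lima1 and Nectin3), and 0 to 1 with one library left out. Tight junction calls (0) were 1 with a mean of at least 5 FPKM (Pard3), 1 under each other scaling and 1 with robust empirical Bayes (Tjp3 each time). Partner calls (1) were 2 under both scalings (Palld and Cblb). LIM calls (2) were 1 with no filter, 3 under upper-quartile scaling (with Pdlim7 added), and 1 to 2 with one library left out. Cortex calls (1) were 0 to 1 with one library left out, the 0 without wild-type embryo 2.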

Other observations

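The largest difference among the tested neighbours of the 6 loci was that of Slc39a14, a zinc and manganese transporter gene 91480 bp from Sorbs3, named after its values were seen. It was at 7.74, 7.91 and 7.25 FPKM in wild-type embryos 1, 2 and 3 and at 2.04, 1.70 and 1.87 FPKM in null embryos 1, 2 and 3 (log2 difference -1.59, SE 0.09, limma adjusted p = 0.000152). Sorbs3 itself did not pass, with a log2 difference of 0.11. On the other side of the change, Phyhip, 245487 bp from Sorbs3, rose from 0.959 ± 0.186 to 2.19 ± 0.436 FPKM (SD, n = 3; log2 difference 0.70, limma adjusted p = 0.0301).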
